A study of Homo sapiens with 6 samples.

Results

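The interleukin 1 (IL1) family was followed across 6 arrays of A431, an established cell line from a human epidermoid carcinoma of the skin that carries the EGF receptor in great excess. The 9 genes were the ligands IL1A, IL1B, IL36G and IL33, the antagonist IL1RN, the receptor chains IL1R1, IL1RL1 and IL1RAP, and the decoy receptor IL1R2. They were picked by name from the platform annotation, and all 9 were present among the 17687 genes with a probe set. The brightest probe set was to stand for a gene, but each had 1 probe set, so no measured value decided which was used. The family itself was chosen with earlier results of these data known, among them the changes of IL1A and IL1RL1 with EGF. The counts of changed members below are therefore descriptions, and IL1A and IL1RL1 are given without a p-value in the comparisons where they were already known to change.

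Of the 3 groups, each of 2 arrays, the control was left without treatment, the next received 100 ng/ml epidermal growth factor (EGF), the ligand of the EGF receptor, and the last received EGF with 10 µM gefitinib, which blocks the kinase of that receptor. All cells had been kept in medium with 10% serum and then starved for 24 h, and the labels give a single harvest at 30 min. That time is taken as labelled and could not be checked here. Several of the genes that differ are usually thought of as slower responders, so the differences below are not assigned to an early response. The sources used here do not give the time at which gefitinib was added, and gefitinib without EGF was not analysed here. The labels speak of biological replicates without naming separate cultures. The p-values therefore measure only how far these samples lie apart, and that spread may be technical. RNA came from whole cultures, so fewer expressing cells and less RNA per cell cannot be told apart.

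IL1A and IL1B bind IL1R1, which then pairs with the accessory chain IL1RAP and signals through the adaptor MYD88 to NF-kB. IL33 uses IL1RL1, also called ST2, with the same accessory chain, and IL36G uses IL1RL2. IL1RN occupies IL1R1 without starting a signal, and IL1R2 captures the ligand but lacks the signalling domain. In the epidermis, keratinocytes make IL1A constitutively and hold much IL1RN.

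The arrays were alike in range. The median over the transcript probe sets was 6.07 to 6.16 on the log2 scale, and 38.4% to 42.1% of the probe sets lay above the negative-control limit, set on each array at the 95th percentile of its negative controls (7.14 to 7.65). Replicate arrays had a median SD of 0.149 (control), 0.148 (EGF) and 0.181 (EGF plus gefitinib). Of 7 genes listed as a check of the EGF response, 5 were called higher with EGF, and EGFR and EGR1 were not. Over all probe sets 6.61% were called higher. SPRY4, among the 5, was below the limit on all 6 arrays. FOSL1, an AP-1 subunit, measured 9.95 and 9.79 in the control, 13.88 and 13.87 with EGF and 10.21 and 9.55 with EGF plus gefitinib. DUSP6, an ERK phosphatase, measured 8.36 and 8.56, 12.58 and 12.42, and 11.23 and 10.90 in the same order, so its EGF plus gefitinib arrays stayed above the control. EGFR measured 14.42 and 14.38, 14.44 and 14.44, and 15.26 and 15.36. EGR1, an immediate early gene, measured 11.70 and 11.67, 11.80 and 11.77, and 10.23 and 9.10, close together in control and EGF and lower with gefitinib. All 8 measured keratinocyte markers lay above the limit. None of 5 mast cell markers did in any group, among them TPSAB1 and CPA3. Of the other blood, vessel and connective tissue markers, 1 of 8 macrophage and neutrophil markers (CD68), 1 of 8 T cell markers (GATA3), 1 of 7 endothelial markers (ERG) and 2 of 7 fibroblast markers (LUM and COL1A2) lay above it on both arrays of a group. PTPRC, PECAM1, VWF and PDGFRA were below the limit on all 6 arrays. CDH5, another endothelial marker, was above it on 1 control array and 1 EGF plus gefitinib array.

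Promoter sequences are shown for the 4 members with the largest differences between EGF and control. The AP-1 motif was marked because the AP-1 subunit FOSL1 was also higher with EGF. Whether AP-1 acts on these genes was not tested. Each runs 5′ to 3′ from 250 bases before a RefSeq start site to 50 after it, on build GRCh38.p14. Capitals mark every match, on either strand, to the AP-1 motif TGANTCA. IL1RL1 has a pair of start sites far apart, and both are shown.
IL1RL1 distal start, chr2:102311313-102311612, plus strand: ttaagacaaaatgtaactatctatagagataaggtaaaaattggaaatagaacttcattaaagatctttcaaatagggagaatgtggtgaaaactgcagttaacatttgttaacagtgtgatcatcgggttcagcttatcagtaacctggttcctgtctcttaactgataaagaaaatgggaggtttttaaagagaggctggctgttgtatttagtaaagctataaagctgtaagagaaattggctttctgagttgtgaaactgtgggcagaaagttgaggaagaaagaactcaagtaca
IL1RL1 proximal start, chr2:102337007-102337306, plus strand: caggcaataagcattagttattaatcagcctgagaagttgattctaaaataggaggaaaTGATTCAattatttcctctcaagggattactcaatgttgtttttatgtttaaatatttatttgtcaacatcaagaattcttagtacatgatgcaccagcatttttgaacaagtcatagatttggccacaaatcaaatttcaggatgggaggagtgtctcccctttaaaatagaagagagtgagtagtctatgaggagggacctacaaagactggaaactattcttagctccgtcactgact
IL1A upstream start, chr2:112784444-112784743, minus strand: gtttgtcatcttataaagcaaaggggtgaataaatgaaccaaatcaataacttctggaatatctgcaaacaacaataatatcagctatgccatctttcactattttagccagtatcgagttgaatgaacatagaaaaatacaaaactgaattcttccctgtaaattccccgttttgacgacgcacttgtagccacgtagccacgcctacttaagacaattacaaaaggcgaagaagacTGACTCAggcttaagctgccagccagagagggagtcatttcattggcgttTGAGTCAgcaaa
IL1B, chr2:112836730-112837029, minus strand: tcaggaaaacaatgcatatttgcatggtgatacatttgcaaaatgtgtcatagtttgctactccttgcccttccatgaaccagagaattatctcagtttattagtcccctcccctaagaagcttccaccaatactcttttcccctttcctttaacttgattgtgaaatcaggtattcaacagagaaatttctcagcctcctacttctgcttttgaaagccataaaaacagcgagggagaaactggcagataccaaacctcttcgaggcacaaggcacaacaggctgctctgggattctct
IL1R2 upstream start, chr2:101991710-101992009, plus strand: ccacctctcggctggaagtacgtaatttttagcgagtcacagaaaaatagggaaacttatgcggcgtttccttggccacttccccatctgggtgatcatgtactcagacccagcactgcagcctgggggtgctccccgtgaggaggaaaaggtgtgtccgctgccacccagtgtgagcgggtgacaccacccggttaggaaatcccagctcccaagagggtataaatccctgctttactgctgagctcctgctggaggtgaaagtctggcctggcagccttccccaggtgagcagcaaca
Positions count from 1 at the start site, and the base before it is −1. The IL1A window held 2 matches, which began at −12 and 39. The proximal IL1RL1 window held 1, which began at −191. The distal IL1RL1 window and those of IL1B and IL1R2 held none. Of the 18 RefSeq windows of the 9 members, 4 held the motif: both overlapping IL1A windows, the proximal IL1RL1 window and 1 of 3 IL1RN windows. Among all 35116 promoter windows of this length 7.71% held it. The TATA motif TATAAA, searched on both strands, began at −29 in the distal IL1RL1 window, at −30 in the IL1R2 window shown and at −239 in the IL1A window. In all, 5 of 18 member windows held it, with 1 IL1RN and 1 IL1R1 window among them, against 11.5% of all windows. The ETS motif CCGGAAG (10.3% of all windows) and the CRE motif TGACGTCA (1.85%) had no match in any member window. The NF-kB motif was a loose pattern: 3 G, then 5 bases of any kind, then 2 C. Searched on both strands with overlapping matches counted, it occurred in 6 of 18 member windows and in 58.7% of all windows. It had 4 matches in the IL1R2 window shown and none in the IL1A, IL1B and IL1RL1 windows. The IL1R2 matches are not 4 separate sites. Those that began at −125, −124 and −123 overlap in a single stretch, and the last began at −72. The other windows that held the NF-kB motif were those of IL1RN (3), IL1R1 (1) and IL1RAP (1). The IL1RN windows of start sites 2 and 3 overlap and hold the same match, which is counted in both. These matches are descriptions of the reference sequence and say nothing about binding in A431 cells.

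The first comparison asked what EGF changed. The ligands IL1A and IL1B, the IL33 receptor IL1RL1, the accessory chain IL1RAP and the decoy IL1R2 rose, and no member fell. The antagonist IL1RN and the receptor IL1R1 were measured but did not pass the test, and IL36G and IL33 were below the negative-control limit on all 6 arrays. In all, limma called 5 of 9 members higher at an adjusted p under 0.05 and 0 lower, where 6.61% of all 21448 probe sets were called higher, 5.3% lower and 11.9% in either direction. Among the probe sets above the limit on both arrays of EGF or control, 23.7% were called. The median difference was 1.02 over the members and −0.03 over all probe sets. The EGF and control arrays did not overlap for 8 of 9 members, IL36G being the exception, and for 55.5% of all probe sets.

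IL1A, which keratinocytes store and release on damage, measured 7.37 and 7.28 in the control and 10.52 and 10.32 with EGF. Both EGF arrays lay above both controls, and the mean rose 8.53-fold, by 3.09 ± 0.22 on the log2 scale (± the standard error that limma fitted, with n = 2 arrays a group, as for every difference below). Only 1 of the 2 control arrays was above the negative-control limit, so the control level is near background.

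IL1B, a secreted ligand whose precursor CASP1 cleaves, measured 10.58 and 10.60 in the control and 13.05 and 12.91 with EGF. All 4 values were above the limit and the groups were far apart. The rise was 5.24-fold (2.39 ± 0.29, limma adjusted p = 0.00368).

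IL1RL1, the receptor of IL33, measured 4.98 and 3.88 in the control, within the negative-control range, and 10.24 and 10.67 with EGF. The probe set was thus below the limit on both control arrays and above it on both EGF arrays, of which 1 also passed the 99th percentile of the negative controls. The fold was at least 8.97, taken against the negative-control limit of the control arrays. The fitted difference of 6.02 ± 0.41 uses control values below that limit and is no estimate of how large the rise was. The gene makes a membrane receptor and a soluble form, and 1 probe set cannot tell them apart. Mast cells are a known source of IL1RL1. The 5 mast cell markers had mean levels per array of 4.14 to 4.22 in the control, 3.79 to 3.92 with EGF and 4.62 to 4.66 with EGF plus gefitinib. All 5, with TPSAB1, CPA3 and KIT among them, were below the limit on all 6 arrays, so these means have no order.

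IL1R2, the decoy receptor, measured 5.26 and 5.52 in the control and 8.60 and 8.47 with EGF. The controls were again below the limit on both arrays and the EGF arrays above it. The rise was at least 2.37-fold (fitted difference 3.15 ± 0.19, limma adjusted p = 0.000421).

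IL1RAP, the chain shared by the receptors of IL1, IL33 and IL36 ligands, measured 10.27 and 10.26 in the control and 11.21 and 11.37 with EGF. The rise of 2.03-fold was the smallest of the 5 (1.02 ± 0.17, limma adjusted p = 0.0118). With control 1, control 2, EGF 1 or EGF 2 left out in turn the call was lost (difference 0.94 to 1.10, highest adjusted p = 0.0841).

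IL1RN, the antagonist, measured 12.53 and 12.38 in the control and 12.69 and 12.63 with EGF. The arrays did not overlap, but the difference of 0.21 ± 0.19 was not called (limma adjusted p = 0.553, 95% interval −0.23 to 0.65). IL1R1, the signalling receptor of IL1A and IL1B, measured 7.40 and 7.17 in the control and 7.90 and 7.53 with EGF. These values were close to the limit, and only 1 of the 2 control arrays was above it. The IL1R1 difference of 0.43 ± 0.26 was not called (limma adjusted p = 0.36, 95% interval −0.19 to 1.04).

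IL36G, a ligand that keratinocytes of inflamed skin make, measured 4.33 and 5.32 in the control, 4.97 and 4.90 with EGF, and 4.67 and 4.77 with EGF plus gefitinib. IL33, an alarmin kept in the nucleus, measured 4.30 and 4.92, 4.96 and 5.36, and 5.09 and 5.52 in the same order. All 12 values lay below the limit of their array, so neither gene has more than an upper bound in any group and no fold is given.

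**Figure D1:**
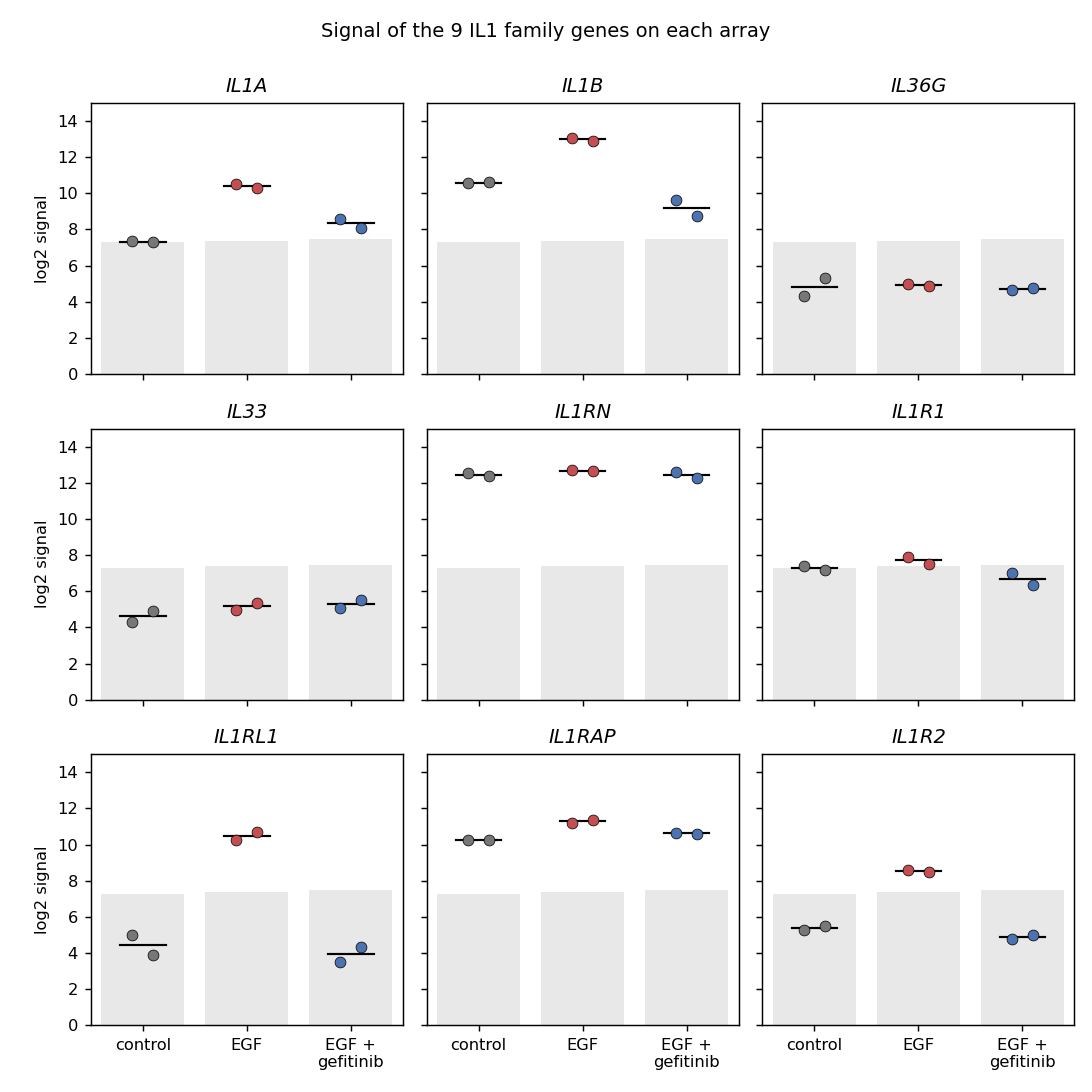
Log2 signal (vertical axes) of the 9 genes on each array, by group, with dots for arrays and bars for the mean of 2 arrays. Grey blocks reach up to the mean negative-control limit of the group's arrays. IL1RL1 and IL1R2 leave the grey range with EGF alone, at 10.24 and 10.67 and at 8.60 and 8.47, and IL36G and IL33 stay inside it in every group.

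In the second comparison, of EGF plus gefitinib with EGF alone, the question was what gefitinib changed. The 5 members that had risen with EGF were lower, and so was IL1R1, while IL1RN, IL36G and IL33 were not called. limma called 6 of 9 members lower and 0 higher, where 9.81% of all probe sets were called lower, 8.86% higher and 18.7% in either direction. Among the probe sets above the limit on both arrays of a compared group 36.5% were called. The median difference was −1.02 over the members and 0.05 over all probe sets. The arrays did not overlap for 8 of 9 members, IL33 being the exception, and for 57.1% of all probe sets. This comparison shares its EGF arrays with the first, so the 2 sets of differences are not independent.

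IL1B measured 9.63 and 8.76 with EGF plus gefitinib, against 13.05 and 12.91 with EGF alone. Both values were lower than any other IL1B value in the series, and the group mean was 9.20 ± 0.61 (SD, n = 2). The fall was 13.8-fold (−3.78 ± 0.29, limma adjusted p = 0.000495). IL1A measured 8.59 and 8.11, between its control and EGF values, and was 4.20-fold lower than with EGF alone (−2.07 ± 0.22).

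IL1RL1 measured 3.53 and 4.34, back within the negative-control range. Its level with EGF alone was at least 7.91-fold higher (fitted difference −6.52 ± 0.41). IL1R2 measured 4.77 and 4.99, also below the limit, and was at least 2.09-fold lower (fitted difference −3.65 ± 0.19, limma adjusted p = 0.000204). For both receptors the EGF plus gefitinib arrays could not be told from background.

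IL1RAP measured 10.65 and 10.60, between control and EGF. It was 1.59-fold lower than with EGF alone (−0.67 ± 0.17, limma adjusted p = 0.0356). This call was lost with quantile normalization (adjusted p = 0.0501) and with any 1 of the 6 arrays left out (−0.75 to −0.59, adjusted p = 0.0651 to 0.177).

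IL1R1 measured 7.01 and 6.37, below the limit on both arrays, and was at least 1.18-fold lower (fitted difference −1.02 ± 0.26, limma adjusted p = 0.0345). Its call was lost in all but 1 of the 6 fits that left out an array (−1.34 to −0.71, highest adjusted p = 0.175). It was kept without EGF plus gefitinib 1. IL1RN measured 12.59 and 12.29, a difference from EGF alone of −0.22 ± 0.19 (limma adjusted p = 0.484, 95% interval −0.66 to 0.22).

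The third comparison set EGF plus gefitinib against the untreated control and shares arrays with both others. IL1B was lower than in the control, and it was the only member called of 9, where 3.89% of all probe sets were called in either direction, 1.7% lower and 2.19% higher. Among the probe sets above the limit on both arrays of a compared group 7.76% were called. The arrays did not overlap for 6 of 9 members, the exceptions being IL36G, IL1RN and IL1RL1, and for 50.4% of all probe sets. The median difference was −0.11 over the members and 0.01 over all probe sets.

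IL1B fell 2.62-fold below the control (−1.39 ± 0.29, limma adjusted p = 0.0465). This call was close to the threshold and was lost without control 1, control 2, EGF 1, EGF 2 or EGF plus gefitinib 2 (−1.40 to −0.96, adjusted p = 0.0869 to 0.182). It was kept without EGF plus gefitinib 1 (−1.83). IL1A lay on the other side of its control. It was 2.03-fold higher with EGF plus gefitinib than in the control (1.02 ± 0.22), which narrowly missed the threshold (limma adjusted p = 0.0501). It was called under quantile normalization (adjusted p = 0.0492), median centring (0.0497), with only probe sets above the limit (0.00721) and with a trended robust prior (0.00473). With an array left out it was not called (0.78 to 1.26, adjusted p = 0.0893 to 0.199).

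Of the receptors, IL1RAP differed from the control by 0.36 ± 0.17 (limma adjusted p = 0.294, 95% interval −0.05 to 0.76) and IL1R1 by −0.59 ± 0.26 (adjusted p = 0.254, −1.21 to 0.02). For IL1R1 both EGF plus gefitinib arrays and 1 control array were below the limit. IL1R2 and IL1RL1 were below the limit in both groups, so no fold is given. IL1RN differed by −0.01 ± 0.19 (limma adjusted p = 0.982, 95% interval −0.45 to 0.43), and the sign turned under quantile normalization (0.03).

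Put in order of level, the groups ran control, EGF plus gefitinib, EGF for IL1A and IL1RAP, with the first step not called for either. For IL1B they ran EGF plus gefitinib, control, EGF, with each step called. For IL1RL1 and IL1R2 EGF stood alone above a pair of groups that were both below the negative-control limit. For IL1R1 EGF was called above EGF plus gefitinib, and the control lay between them and was called against neither.

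**Figure D2:**
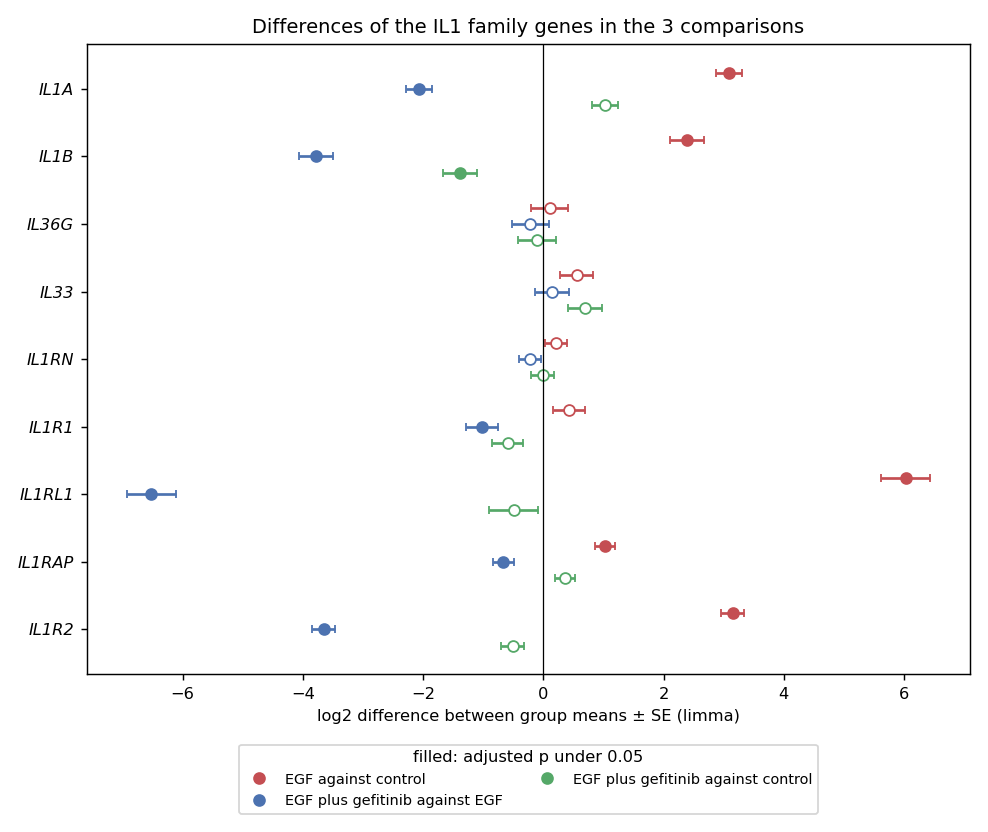
Log2 differences between group means (horizontal axis) of the 9 genes in the 3 comparisons, with bars for the standard error of the limma fit. Filled dots were called at an adjusted p under 0.05. IL1B is called in all 3 comparisons (2.39, −3.78 and −1.39), and the sizes for IL1RL1 and IL1R2 rest on values below the negative-control limit.

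Most of the family lies in 2 gene clusters of chromosome 2, in the order of the RefSeq gene table. The receptor cluster runs IL1R2, IL1R1, IL1RL2, IL1RL1, IL18R1 and IL18RAP with no other protein-coding gene between them. IL1RL2, the receptor of IL36 ligands, and IL18R1, the receptor of IL18, stand on either side of IL1RL1. IL1RL2 averaged 4.75 in the control, 6.28 with EGF and 4.86 with EGF plus gefitinib. It was called for EGF (1.53 ± 0.26, limma adjusted p = 0.0127) and for gefitinib in the presence of EGF (−1.42 ± 0.26, adjusted p = 0.0101). IL18R1 measured 3.95 and 4.64, 5.20 and 5.67, and 3.35 and 3.47 in the same order. It was called in the same comparisons (1.14 ± 0.28, limma adjusted p = 0.0404, and −2.03 ± 0.28, adjusted p = 0.00331). The values of both genes lay below the negative-control limit on all 6 arrays, so these differences give no fold. With an array left out, the EGF call of IL1RL2 was lost without control 2 or EGF 2 (lowest difference 1.28), and that of IL18R1 was kept only without control 2 (lowest difference 0.79). The gefitinib call of IL1RL2 was lost without EGF 2 or EGF plus gefitinib 2 (highest adjusted p = 0.0686), and that of IL18R1 was kept in all 6 fits. IL18RAP, the accessory chain for IL18, was not called in either comparison (0.30 ± 0.17 and −0.29 ± 0.17, limma adjusted p = 0.321 and 0.306).

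The ligand cluster runs IL1A, IL1B, IL37, IL36G, IL36A, IL36B, IL36RN, IL1F10 and IL1RN, again with no other protein-coding gene between. IL1A and IL1B, at one end, were called for EGF and for gefitinib in the presence of EGF. The other 7 genes were called in neither. IL37, IL36A, IL36B, IL36RN and IL1F10 lay below the limit on all 6 arrays, as did IL36G, so only IL1RN at the far end was measured among those 7. IL1RAP and IL33 lie on chromosomes 3 and 9.

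**Figure D3:**
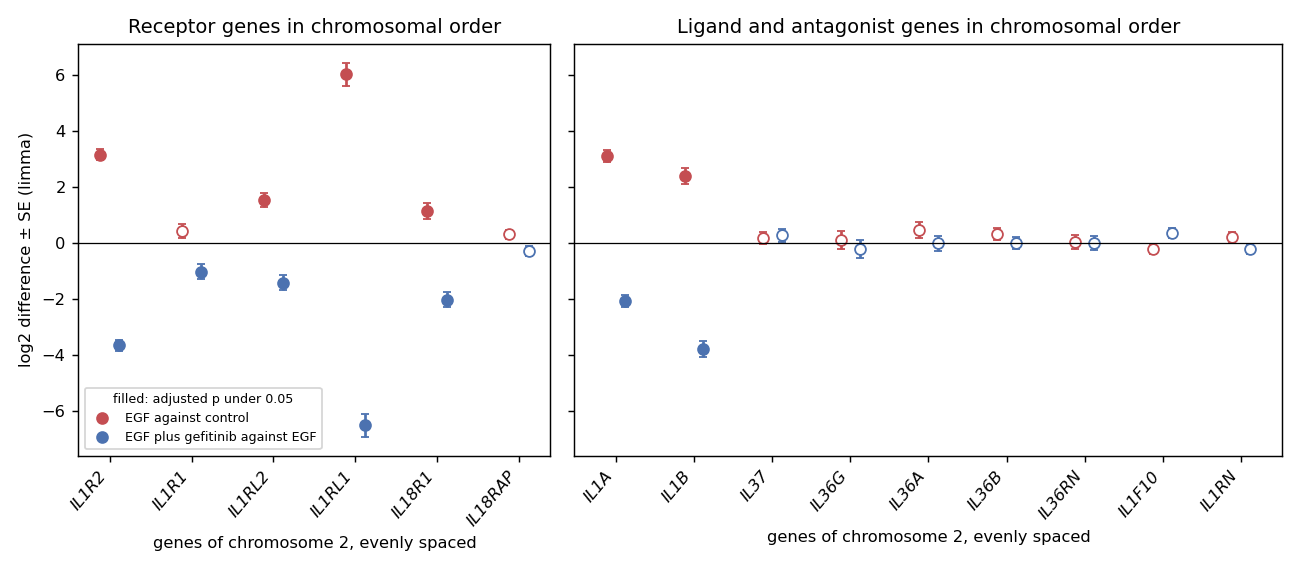
Log2 differences ± the standard error of the limma fit (vertical axis) of the genes of both clusters in chromosomal order, evenly spaced, for EGF against control (red) and EGF plus gefitinib against EGF (blue). Filled dots were called at an adjusted p under 0.05. In the receptor cluster 4 of 6 genes were called for EGF, where 11.9% of all probe sets were called in either direction. Of the 4, IL1RL2 and IL18R1 were below the negative-control limit on every array, and the change of IL1RL1 was known beforehand. In the ligand cluster only IL1A and IL1B were called, at one end, and the change of IL1A was known beforehand. Of the other genes of that cluster only IL1RN was above the limit.

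The gene profile nearest to IL1A was that of F3, tissue factor, which starts blood clotting. Likeness was measured as the root mean square difference over the 6 arrays, after each gene's own mean was subtracted, against 17686 other genes. F3 measured 12.79 and 12.85 in the control, 15.60 and 15.66 with EGF and 14.05 and 13.87 with EGF plus gefitinib, a root mean square difference of 0.208 from IL1A. FST, which binds activin (0.240), TAGLN, an actin-binding protein (0.264), PLAUR, the urokinase receptor (0.267), and EREG, an EGF receptor ligand (0.271), followed. TAGLN and EREG were above the limit with EGF only, so their likeness to IL1A rests partly on values within the negative-control range.

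For IL1RL1 the nearest gene was SOCS2, an inhibitor of cytokine receptor signalling. SOCS2 measured 4.08 and 3.82, 9.76 and 9.73, and 3.90 and 4.42 in the same order of groups, a root mean square difference of 0.489. CXCL10, a chemokine (0.515), SERPINB4 (0.593), HAS2, a hyaluronan synthase (0.670), and SERPINB3 (0.752) followed. SERPINB3 and SERPINB4 are near-identical paralogs, so the split of signal between them is uncertain. Of the control and EGF plus gefitinib arrays of these 5 genes, only 1 control array of SERPINB4 was above the limit, so apart from it the likeness rests on the EGF arrays.

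The rest of the IL1 pathway was taken from 5 lists by role, 72 genes of which 62 had a named probe set, 33 of them below the limit on all 6 arrays. For EGF against control limma called 11 of the 62 higher and 2 lower, and for gefitinib in the presence of EGF 2 higher and 12 lower. The background was 11.9% and 18.7% of all probe sets, as given above. For EGF plus gefitinib against control 2 were higher and 3 lower, where 3.89% of all probe sets were called, and 7.76% of those above the limit. The median differences were 0.29, −0.04 and 0.02, against −0.03, 0.05 and 0.01 over all probe sets. The count for EGF fell to 2 to 4 without control 1, control 2, EGF 1 or EGF 2, and that for gefitinib in the presence of EGF to 9 without EGF 2 or EGF plus gefitinib 1. Without any 1 array the count against control was 0 to 3. CHUK and TNFAIP3 were the EGF calls kept in every fit that left out an array. IL18R1, AIM2, GSDME, MYD88, CHUK, UBE2N and MMP1 were the 7 of 14 gefitinib calls kept in every such fit, and none of the 5 calls against control was.

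Among 7 other ligands and antagonists, IL18BP, which captures IL18, was called higher with EGF (0.71 ± 0.17, limma adjusted p = 0.0423) and lower with gefitinib (−0.82 ± 0.17, adjusted p = 0.0178), below the limit on all arrays. Its EGF call was lost with any 1 array left out. IL18, an epithelial ligand made as a precursor, measured 11.74 and 11.39 in the control, 11.51 and 11.65 with EGF and 12.34 and 12.52 with EGF plus gefitinib. Its highest values were those under gefitinib, where IL1B had its lowest, and they lay 1.80-fold above EGF alone (0.85 ± 0.20, limma adjusted p = 0.0252). Against the control the difference of 0.87 ± 0.20 was not called (adjusted p = 0.0611). Without EGF 1, EGF 2, EGF plus gefitinib 1 or EGF plus gefitinib 2 the call against EGF alone was lost (0.76 to 0.94, highest adjusted p = 0.131). Of 6 other receptors, IL1RL2 and IL18R1 are described above. SIGIRR, a receptor that dampens IL1 signals, did not pass the test for EGF (−0.49 ± 0.19, limma adjusted p = 0.154).

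Of 15 measured genes that process or release the ligands, 1 rose and 1 fell with EGF, near the 11.9% called over all probe sets. AIM2, a DNA sensor that assembles an inflammasome, measured 11.26 and 10.48 in the control, 12.12 and 12.34 with EGF and 10.26 and 10.43 with EGF plus gefitinib. It rose 2.57-fold with EGF (1.36 ± 0.27, limma adjusted p = 0.0219, lost without control 2, EGF 1 or EGF 2) and was 3.68-fold lower with gefitinib than with EGF alone (−1.88 ± 0.27, adjusted p = 0.0042). PYCARD, the adaptor between sensor and CASP1, moved the other way with EGF, from 11.11 and 11.09 to 10.30 and 10.41 (−0.74 ± 0.17, limma adjusted p = 0.0349), and measured 10.52 and 10.38 with gefitinib, overlapping EGF alone. Without control 1, control 2, EGF 1 or EGF 2 the calls of PYCARD, UBE2N, LCN2, IL6, CCL20 and LIF for EGF were lost, and that of ICAM1 was lost without any 1 array. CASP1 itself measured 8.07 and 8.22, 7.93 and 8.66, and 8.27 and 7.79, with overlapping groups throughout. CTSS, a cysteine protease, was lower with EGF plus gefitinib than in either other group, at least 1.93-fold against EGF (limma adjusted p = 0.0087) and at least 2.21-fold against control (adjusted p = 0.023). GSDME, a pore-forming protein, was called lower with gefitinib (−1.59 ± 0.22, limma adjusted p = 0.00335) below the limit on all arrays.

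Of 15 measured relay genes, CHUK and UBE2N rose with EGF and none fell, again near the 11.9% called over all probe sets. CHUK, an IkB kinase subunit, measured 6.18 and 6.44 in the control, 8.49 and 8.51 with EGF and 6.33 and 5.95 with EGF plus gefitinib. It rose at least 2.31-fold (limma adjusted p = 0.00171) and was at least 2.04-fold lower with gefitinib (adjusted p = 0.000729). UBE2N, a ubiquitin-conjugating enzyme that works with TRAF6, measured 10.74 and 10.64, 11.73 and 11.53, and 9.65 and 9.65, a rise of 1.92-fold with EGF (limma adjusted p = 0.017). MYD88, the shared adaptor, measured 10.72 and 10.73, 11.27 and 11.30, and 9.57 and 9.63. For both, as for IL1B, the groups ran EGF plus gefitinib, control, EGF. Against control, EGF plus gefitinib was 2.06-fold lower for UBE2N (−1.04 ± 0.18, limma adjusted p = 0.0291) and 2.18-fold lower for MYD88 (−1.13 ± 0.17, adjusted p = 0.0211). MYD88 did not pass the test for EGF (0.56 ± 0.17, limma adjusted p = 0.0765). MAP3K3, a kinase of the relay, was called higher with gefitinib than with EGF alone (1.12 ± 0.26, limma adjusted p = 0.0247) below the limit on all arrays.

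Of 19 measured textbook targets of IL1 in epithelium, 5 were called higher with EGF and 1 lower, and 13 were below the limit on all 6 arrays (11.9% of all probe sets were called). TNFAIP3, a brake on NF-kB, measured 9.83 and 10.06 in the control, 13.10 and 13.08 with EGF and 12.45 and 12.57 with EGF plus gefitinib. With EGF plus gefitinib it was 5.91-fold above the control (2.56 ± 0.18, limma adjusted p = 0.0062). This call was lost without control 1 or EGF plus gefitinib 2 (highest adjusted p = 0.0635). ICAM1, a leukocyte adhesion molecule, rose 1.83-fold with EGF (0.87 ± 0.21, limma adjusted p = 0.0396) and was 1.88-fold lower with gefitinib (adjusted p = 0.0245). LCN2, an iron-sequestering antimicrobial protein, fell 2.59-fold with EGF (−1.38 ± 0.26, limma adjusted p = 0.0171). IL6, CCL20 and LIF were called higher with EGF (1.63 ± 0.29, 0.95 ± 0.18 and 1.45 ± 0.33) with all values below the limit. MMP1, a collagenase, and DEFB4A, a defensin, were called lower with gefitinib than with EGF alone. MMP1 was below the limit on both EGF plus gefitinib arrays, so its fall was at least 1.46-fold (fitted difference −1.35 ± 0.18), and DEFB4A was below the limit on all arrays (−0.95 ± 0.24). The chemokines CXCL1, CXCL2, CXCL3 and CXCL8 were below the limit on all 6 arrays and were not called in the EGF comparison.

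**Figure D4:**
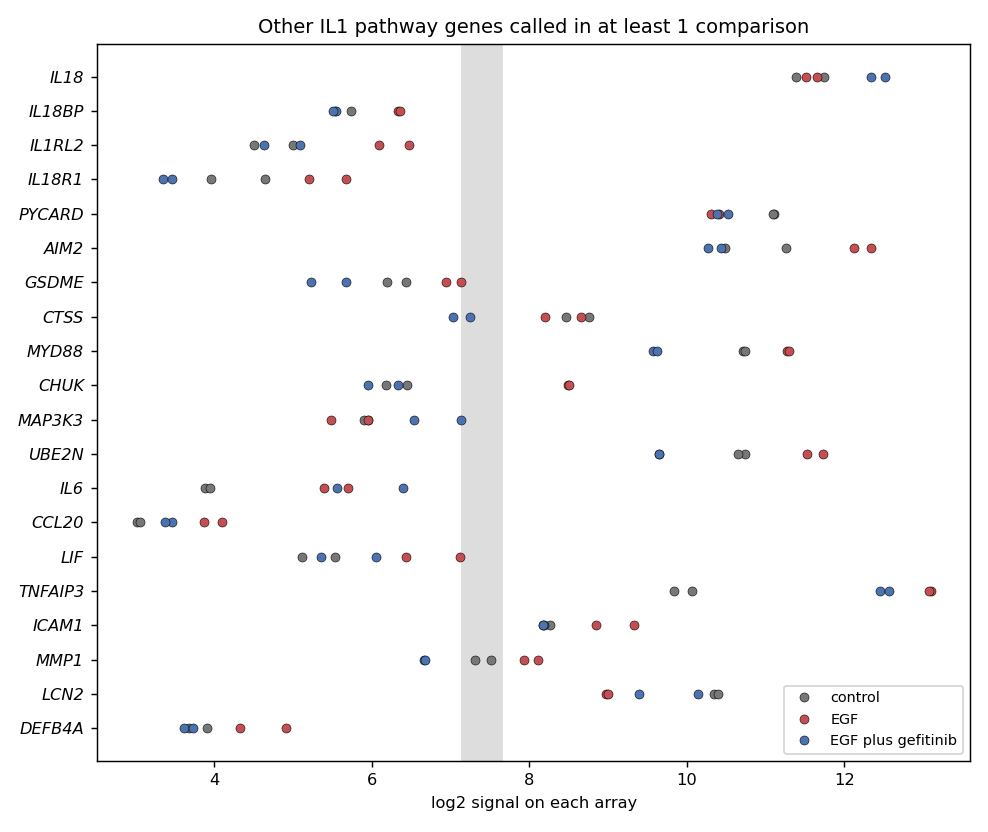
Log2 signal (horizontal axis) on each of the 6 arrays for the other IL1 pathway genes called in at least 1 comparison, coloured by group. The grey band spans the negative-control limits of the arrays, 7.14 to 7.65. TNFAIP3 with EGF plus gefitinib (12.45 and 12.57) sits near its EGF values, whereas UBE2N (9.65 and 9.65) and MYD88 (9.57 and 9.63) sit below their controls.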

How the data were processed

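The values are log2 signals per probe set of 1 array per sample, as deposited. Per the labels, an Affymetrix WT PLUS kit was used to label total RNA with biotin. Per the submitters' processing notes, the authors made the log2 values in Transcriptome Analysis Console. Its version, and how background, probe summary and normalization were handled, is not stated in the labels or files. The scale was read from the values, and no further normalization was applied.

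Control probe sets (2903 of 24351) were left out, and the remaining 21448 were fitted together without a filter, with 3 group means over all 6 arrays, with limma 3.58.1 (its lmFit and eBayes functions, R 4.3.3). Residual degrees of freedom were 3 and prior ones 4.22. Tests were two-sided with Benjamini-Hochberg adjustment over all probe sets, and "called" means an adjusted p under 0.05. The annotation named 17709 probe sets by 1 symbol and did not list 3739. No coordinates of probe sets are given. A probe set at or below the 95th percentile of 612 negative controls on both arrays of a group is known there only as an upper bound, and a fold against it, written "at least", uses the mean limit of those arrays. The number of arrays limits the precision. The fit was tested on simulated data.

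The members and lists were chosen with earlier results of these data known. All 9 members are named. Of each pathway list the rule selects the called genes and the 4 with the largest moderated statistic in each comparison, and those not called are mostly not printed. Other genes were named as treatment checks, as markers, by likeness to IL1A or IL1RL1, or by position beside members. CASP1 and the CXCL genes were named after their values were seen. Alternatives were quantile normalization, median centring, a filter on dim probe sets, fits on 4 arrays, a trended robust prior, a replicate block and leaving out each array. Promoter sequences are RefSeq's (GRCh38.p14), and all 9 members matched.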

Additional observations from a re-analysis of the deposited data

How the results depend on the processing

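For EGF against control, limma called 5 members under every alternative that left out no array of the groups compared and 4 to 5 with an array left out. For gefitinib in the presence of EGF the count was 6, with 5 under quantile normalization, 5 with the replicate block, 4 on the 4 arrays compared and 4 to 5 with an array left out. The differences of IL1A, IL1B, IL1RL1 and IL1R2 in these comparisons kept their direction in every alternative. IL1B and IL1R2 also kept their calls in every alternative that left out no array. For IL1A and IL1RL1, whose changes were known beforehand, the steady direction is a description only. IL1RL1, IL1R2 and IL1R1 passed the filter on dim probe sets only through their EGF arrays, so that alternative adds no separate evidence for them. Over all probe sets the calls for EGF numbered 2554, with 3984 above the negative-control limit only, 4241 with the trended robust prior and 726 to 2506 with an array left out. For gefitinib in the presence of EGF they numbered 4005, and 1889 to 3406 with an array left out. For EGF plus gefitinib against control they numbered 834, with 2610 above the limit only, 247 on the 4 arrays compared, 2777 with the trended prior and 0 to 247 with an array left out. The 0 came without control 1 (3280 at an unadjusted p under 0.05) and without EGF plus gefitinib 2 (3810).

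Members called against control in that last comparison numbered 1, with 2 under quantile normalization, 2 under median centring, 3 above the limit only, 2 with the trended prior, 0 on the 4 arrays compared (4 at an unadjusted p under 0.05) and 0 to 1 with an array left out. Other pathway genes called numbered 13 for EGF (2 to 11 with an array left out). They numbered 14 for gefitinib in the presence of EGF (23 with the trended prior, 9 to 15 with an array left out). In the last comparison they numbered 5, with 10 above the limit only, 3 on the 4 arrays compared, 12 with the trended prior and 0 to 3 with an array left out, where limma's unadjusted p was under 0.05 for 13 to 22. The cause of these shifts was not tested. The 3 members called above the limit only included IL1R2, which was below the limit in both groups compared. It passed that filter only through its EGF arrays, so this call is no measured difference. The filter kept 9003 probe sets, of which 2610 were called.

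No pairing of the arrays by the replicate numbers of the labels was seen: deviations of same-numbered arrays correlated at −0.04, 0.02 and −0.0035 across probe sets. This measure runs over all transcript probe sets, so a shift shared by only some genes could go unseen. With the replicate block, 2040, 3489 and 333 probe sets and 5, 5 and 0 members were called in the 3 comparisons (5 members at an unadjusted p under 0.05 in the last). IL1RAP then lost its call against EGF alone (adjusted p = 0.0603), and IL1B its call against control (adjusted p = 0.0644).

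Differences that were not called turned sign for IL36G (−0.39 to 0.60 for EGF and −0.60 to 0.39 for EGF plus gefitinib against control), IL33 (−0.076 to 0.36 for gefitinib in the presence of EGF), IL1RN (−0.16 to 0.14 against control, and 0.031 under quantile normalization) and IL1RL1 (−1.04 to 0.054 against control) with an array left out. Of 318 values of single members under the alternatives, 279 kept direction and call. With the 99th percentile of negative controls as the limit, 4 members in place of 7 lay above it on both arrays of a group. Signal over background limits IL1R2, above that stricter limit on 0 arrays, IL1RL1, above it on 1 EGF array, and all differences of genes below the limit.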
